A study of Homo sapiens with 48 samples.

Results

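The 9 genes described here carry, convert and read out retinoids: STRA6, CRABP1, CRABP2, DHRS3, RARA, RARB, RARG, RXRA and RXRB. They were taken by name, as the 9 rows bearing these symbols among 19923 gene names in each count file. The study measured poly(A) RNA in 48 libraries from Kelly and NGP, which are human neuroblastoma cell lines with amplified MYCN and are labelled wild type. Each line was cultured for 3 or 6 days with 8 µM STM2457, an inhibitor of the RNA methyltransferase METTL3, or with its solvent DMSO, and then received 10 µg/ml actinomycin D, which blocks transcription, for 0, 3 or 6 h. This makes 24 groups of 2 libraries, and all groups share the same medium and wild-type genotype. The labels do not say whether the 2 libraries of a group came from separate cultures, so p-values measure the spread between these libraries, which may be technical.

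Retinol reaches a cell bound to a plasma carrier, and STRA6 is the membrane receptor that takes it up. Inside the cell retinol is oxidised by way of retinaldehyde to retinoic acid, and DHRS3 reduces retinaldehyde back to retinol. CRABP1 and CRABP2 are small cytosolic proteins that bind retinoic acid, of which CRABP2 is known to deliver it to the nucleus. There it binds the retinoic acid receptors RARA, RARB and RARG, which act as heterodimers with the retinoid X receptors RXRA and RXRB on pairs of short half-sites in DNA. Retinoic acid drives neuroblastoma cells to differentiate and, in its 13-cis form, is used in treating the disease.

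The classical direct repeat of such half-sites lies in a promoter of RARB, and STRA6 had the largest called STM2457 change among the members, so those 2 windows are shown first. They come from RefSeq on GRCh38.p14, run 5′ to 3′ on the gene's own strand from 250 bases before to 50 bases after a start site, and lie at chr3:25428013-25428312 (+ strand) and chr15:74212210-74212509 (− strand). Capitals mark, in RARB, the half-sites that form a pair and, in STRA6, every half-site found.
RARB: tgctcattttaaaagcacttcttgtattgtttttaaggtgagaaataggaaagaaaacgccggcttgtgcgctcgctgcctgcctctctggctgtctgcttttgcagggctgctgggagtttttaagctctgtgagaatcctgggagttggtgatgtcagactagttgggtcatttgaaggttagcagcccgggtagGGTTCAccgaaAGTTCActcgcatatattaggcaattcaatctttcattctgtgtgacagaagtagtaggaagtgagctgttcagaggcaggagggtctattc
STRA6: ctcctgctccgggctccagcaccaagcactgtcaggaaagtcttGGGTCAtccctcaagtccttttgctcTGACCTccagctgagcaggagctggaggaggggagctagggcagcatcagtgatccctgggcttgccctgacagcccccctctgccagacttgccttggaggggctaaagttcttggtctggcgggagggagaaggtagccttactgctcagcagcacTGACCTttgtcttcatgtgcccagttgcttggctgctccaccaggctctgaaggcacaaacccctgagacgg
The search took AGGTCA as the half-site, the related form AGTTCA, a further form GGGTCA and, last, the form GGTTCA, each on both strands, overlaps with other motifs allowed. In the RARB window GGTTCA was followed by AGTTCA in the same direction with 5 bases between them, at chr3:25428210-25428215 and chr3:25428221-25428226, beginning 53 and 42 bases before the start site. Another half-site of that window, GGGTCA, began 83 bases before it and formed no pair. The STRA6 window held GGGTCA once and AGGTCA on the opposite strand at 2 places, the nearer at 22 bases before the start site, and no pair with 1, 2 or 5 bases between. The table gave 22 windows for 9 of 9 members, and 10 of them, from 6 members, held a half-site, while 38.6% of all 35116 windows did. A same-direction pair with 1, 2 or 5 bases between was in 1 member window and in 0.259% of all windows, and one with 5 bases between in 0.0883%. A match of letters is a description of the window and not a measurement of binding.

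All 9 members passed the filter on low counts in both lines and in the fit that joined them. Between 11139550 and 21942238 fragments fell in genes in each library, of which mitochondrial genes took 3.22 to 7.38%, and the ERCC spike-ins came to 0.265 to 0.671%. Libraries of a group were never identical. METTL3, the enzyme that STM2457 inhibits, was counted at 44.7 to 72.4 CPM (counts scaled to equal library size) in Kelly and 46.0 to 74.9 in NGP, which says nothing of the enzyme's activity. The markers of adrenergic neuroblastoma cells were high in both lines, with summed levels of 8570 to 12078 CPM in Kelly, where 10 of 10 reached a mean of 1 CPM, and 2029 to 4063 CPM in NGP, where 9 of 10 did. Immune, endothelial, epithelial and Schwann cell markers summed to at most 11.0 CPM per list in any library. Fibroblast markers summed to 67.7 to 233 CPM in NGP and to at most 50.6 CPM in Kelly, and mesenchymal neuroblastoma markers to 295 to 595 CPM in NGP. The fibroblast medians in NGP were 75.6 CPM for COL1A1 and 22.2 for COL3A1, against 2.66 for LUM, 0.0271 for COL1A2 and 0 for DCN. Among the mesenchymal markers TWIST1, VIM and FN1 had NGP medians of 193, 124 and 97.9 CPM. PRRX1 and SNAI2 were at 6.83 and 3.13, CD44 at 0.227, and YAP1 and NOTCH2 at 0.

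The members differed widely in level. Levels are compared between genes per length, as CPM per kilobase of the exon length in the count files, which joins the exons of all annotated transcripts and so understates genes with long unused exons. Over the 4 DMSO libraries of Kelly at 0 h of actinomycin D, CRABP1 stood at 84.3 ± 34.4 CPM per kb (SD, n = 4, both durations together). CRABP2 followed at 15.1 ± 8.43, RARA at 13.6 ± 1.22, STRA6 at 6.13 ± 5.36, RXRB at 4.77 ± 0.627, RXRA at 4.35 ± 0.473, RARG at 2.83 ± 1.06, RARB at 1.20 ± 0.625 and DHRS3 at 0.196 ± 0.187. Between neighbours of this order all 4 libraries lay apart only for CRABP1 over CRABP2, RARA over STRA6, RXRA over RARG and RARB over DHRS3. In NGP the order was CRABP1 at 15.4 ± 8.26 CPM per kb, RARA at 10.0 ± 2.27, CRABP2 at 6.60 ± 1.68, STRA6 at 5.29 ± 0.601, RXRB at 4.85 ± 0.776, RXRA at 3.37 ± 0.412, RARB at 1.89 ± 0.351, RARG at 1.52 ± 0.777 and DHRS3 at 0.586 ± 0.526. There RXRB lay apart from RXRA and RXRA from RARB, and no other neighbours did. The joined exons came to 12077 bases for RXRA, 7669 for STRA6, 4743 for RARA and 3920 for RXRB. Their MANE Select transcripts, used below, had 5537, 2708, 3275 and 2885 bases. The separations of RARA from STRA6 in Kelly and of RXRB from RXRA in NGP may therefore change with the length used. The order on transcript length was not computed. On the joined exon length RARA was the receptor with the highest mean level in both lines, and DHRS3 was barely detected.

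Kelly cells held far more CRABP1 than NGP cells, and STRA6 differed between the lines in opposite directions at the 2 durations. In DMSO at 0 h, 2 of 9 members were called different between the lines at 3 days (an adjusted p under 0.05 by edgeR's quasi-likelihood test), against 30% of all genes tested, and 3 of 9 at 6 days, against 31.6%. CRABP1 read 52.4 and 52.1 CPM in the 2 Kelly libraries at 3 days against 10.2 and 5.95 CPM in NGP, and 108 and 111 CPM against 22.0 and 20.8 CPM at 6 days. The NGP-versus-Kelly log2 change was −2.70 ± 0.21 (SE, n = 2 per group here and below, adjusted p = 5.88e-18) at 3 days and −2.35 ± 0.19 (adjusted p = 5.70e-17) at 6 days. STRA6 was lower in NGP at 3 days, with a log2 change of −0.91 ± 0.15 (adjusted p = 5.66e-07), and higher at 6 days, with 1.71 ± 0.16 (adjusted p = 1.17e-14). CRABP2 was lower in NGP at 6 days, with −1.66 ± 0.36 (adjusted p = 0.000104), and at 3 days its change was −0.37 ± 0.36 (adjusted p = 0.52). None of the 5 receptors passed edgeR's test with the filter and all libraries, while at an unadjusted p under 0.05 RARA and RARG did at 6 days. Without the filter on low counts edgeR called RARA at 6 days (−0.72, adjusted p = 0.00864), and without NGP DMSO replicate 2 it called RARG (−2.11, adjusted p = 0.00732, against −1.02 with all libraries). Limma-voom called 5 members at 6 days, with RARA at −0.76 and RARG at −1.33 lower in NGP as well (adjusted p = 0.00234 and 0.00793). ERCC scaling also called 5, with RARA at −0.86 and RXRA at −0.60 in addition (adjusted p = 0.0259 and 0.041).

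**Figure D1:**
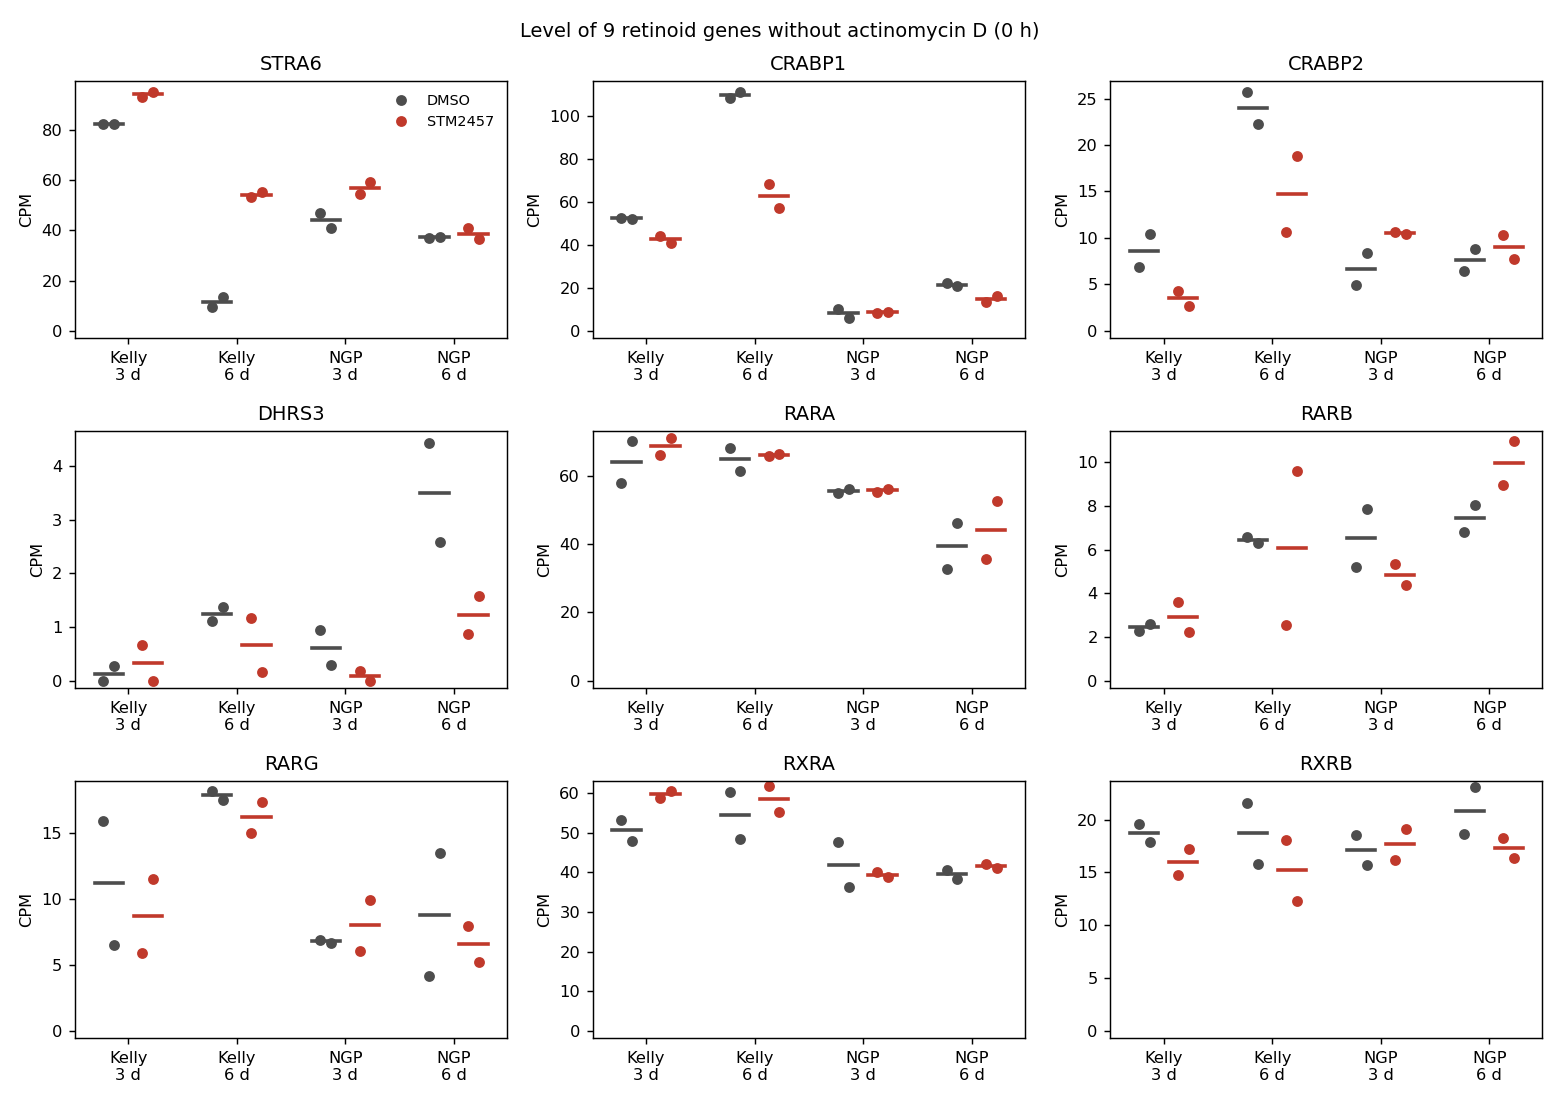
Level in CPM (vertical axis, linear, from 0) of each of the 9 genes in the libraries without actinomycin D, by cell line and days of culture (horizontal axis); points are single libraries, grey for DMSO and red for STM2457, and bars are means of 2. In Kelly at 6 days STRA6 lies at 9.53 and 13.4 CPM in DMSO and at 53.4 and 55.2 CPM in STM2457, while CRABP1 lies at 108 and 111 CPM and at 68.1 and 57.2 CPM.

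STM2457 changed STRA6 and CRABP1 in opposite directions in Kelly cells at 6 days. With TMM scaling it changed none of the 5 receptors past the threshold in either line, where none passed an unadjusted p under 0.05 either. STRA6 read 9.53 and 13.4 CPM in the 2 DMSO libraries and 53.4 and 55.2 CPM in the 2 STM2457 libraries. The log2 change was 2.28 ± 0.16 (adjusted p = 5.11e-29), a 4.85-fold higher level. CRABP1 read 108 and 111 CPM in DMSO and 68.1 and 57.2 CPM in STM2457. It fell by 0.78 ± 0.13 on the log2 scale (adjusted p = 3.68e-06). These were the 2 members of 9 called in this comparison, in which 3.97% of all genes tested were called.

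At 3 days in Kelly the called member was CRABP2, 1 of 9 against 1.68% of all genes tested. It read 6.82 and 10.4 CPM in DMSO and 4.28 and 2.68 CPM in STM2457, a log2 change of −1.31 ± 0.36 (adjusted p = 0.0275). The call was lost without any of 3 of the 4 libraries (DMSO replicate 2, STM2457 replicate 1 or STM2457 replicate 2). Over the 4 refits the log2 change ranged from −1.68 to −0.98. The call was also lost with limma-voom (adjusted p = 0.541) and with scaling to the ERCC spike-ins (−0.91, adjusted p = 0.0629). At 6 days CRABP2 read 25.7 and 22.3 CPM in DMSO and 10.6 and 18.8 CPM in STM2457, and its change of −0.69 ± 0.33 did not pass (adjusted p = 0.383). STRA6 read 82.6 and 82.7 CPM in DMSO and 93.2 and 95.4 CPM in STM2457 at 3 days. Its change of 0.18 ± 0.14 did not pass (adjusted p = 0.834), nor did that of CRABP1, −0.31 ± 0.14 (adjusted p = 0.448). With ERCC scaling, under which the median of all genes in this comparison was higher by 0.379 on the log2 scale, STRA6 at 0.58 and RXRA at 0.63 were called (adjusted p = 0.00128 and 0.00988).

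In NGP no member was called at either duration, against 3.7% of all genes tested at 3 days and 7.99% at 6 days. STRA6 read 46.9 and 41.1 CPM in DMSO and 54.6 and 59.5 CPM in STM2457 at 3 days, with a log2 change of 0.37 ± 0.16 (adjusted p = 0.26). At 6 days it read 37.0 and 37.4 CPM against 40.9 and 36.5 CPM, with 0.06 ± 0.16 (adjusted p = 0.925). CRABP1 read 22.0 and 20.8 CPM in DMSO and 13.4 and 15.9 CPM in STM2457 at 6 days, and its change of −0.55 ± 0.27 did not pass (adjusted p = 0.28). At an unadjusted p under 0.05, 1 of 9 members passed at 3 days (STRA6) and 1 at 6 days (CRABP1) in NGP, and DESeq2 and limma-voom called 0 in both.

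The STRA6 effect differed between durations and between lines by tests of those differences. In Kelly the 6 day effect exceeded the 3 day effect by 2.09 ± 0.21 on the log2 scale (adjusted p = 3.21e-15), 1 of 9 members called against 0.788% of all genes tested. In NGP the difference was −0.31 ± 0.23 (adjusted p = 0.79), with 0 of 9 members called against 2.8%, with none past an unadjusted p of 0.05 and 0 calls by either DESeq2 or limma-voom. At 6 days the effect was lower in NGP than in Kelly by −2.20 ± 0.22 (adjusted p = 1.01e-11), 1 of 9 members called against 1.75%. At 3 days the lines' effects on STRA6 differed by 0.18 ± 0.21 (adjusted p = 1.00), and 0 of 9 members were called against 0.161%. At an unadjusted p under 0.05 CRABP2 alone passed there, and DESeq2 called it (1.97, adjusted p = 0.0104) where limma-voom called 0. For CRABP1 no difference between durations or lines passed with TMM scaling: it was −0.47 ± 0.19 between durations in Kelly (adjusted p = 0.458) and 0.25 ± 0.27 between the lines at 6 days (adjusted p = 0.95). With ERCC scaling, where the median of all genes was −0.615, the Kelly duration difference was called for CRABP1 at −1.13 (adjusted p = 4.43e-06) and for RXRA at −0.75 (adjusted p = 0.0295).

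**Figure D2:**
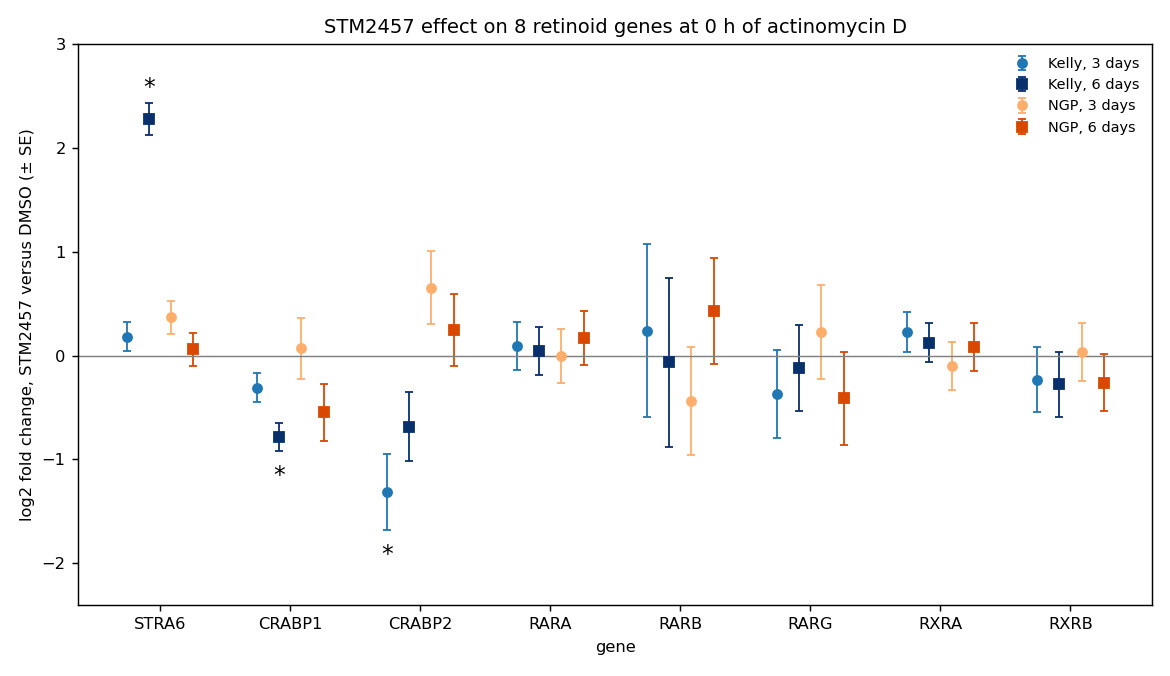
Log2 fold change of STM2457 over DMSO at 0 h of actinomycin D (vertical axis) for 8 of the 9 genes (horizontal axis) in the 4 combinations of cell line and duration. Bars are ± 1 SE computed from edgeR's test (2 libraries per group, spread estimated over all 24 libraries of the line). Stars mark an adjusted p under 0.05. DHRS3, with SEs up to 2.56, is left out. STRA6 in Kelly at 6 days stands at 2.28, CRABP1 in the same cells at −0.78 and CRABP2 in Kelly at 3 days at −1.31.

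With TMM scaling no STM2457 change of a receptor was called, and the precision was unequal. With ERCC scaling RXRA was called in Kelly at 3 days, as given above. RARA, the receptor with the highest level, read 57.9 and 70.2 CPM in DMSO and 66.1 and 71.1 CPM in STM2457 in Kelly at 3 days, and 68.2 and 61.4 CPM against 65.7 and 66.2 CPM at 6 days. Its 4 log2 changes ran from −0.01 ± 0.26 in NGP at 3 days to 0.17 ± 0.26 in NGP at 6 days. RXRA, a heterodimer partner of the retinoic acid receptors, changed by −0.10 ± 0.23 (NGP, 3 days) to 0.23 ± 0.19 (Kelly, 3 days), and RXRB by −0.28 ± 0.31 (Kelly, 6 days) to 0.03 ± 0.28 (NGP, 3 days). RARB and RARG were counted at lower levels and their SEs reached 0.83 and 0.45. The log2 changes of RARB ran from −0.44 (NGP, 3 days) to 0.43 (NGP, 6 days), and those of RARG from −0.41 (NGP, 6 days) to 0.23 (NGP, 3 days). RARB, itself a known target of retinoic acid through the repeat printed above, read 2.56 and 9.62 CPM in the 2 Kelly STM2457 libraries at 6 days, on either side of the DMSO values of 6.58 and 6.31 CPM. In NGP at 6 days RARB read 6.81 and 8.06 CPM in DMSO and 8.97 and 11.0 CPM in STM2457, a log2 change of 0.43 ± 0.51 (adjusted p = 0.784).

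DHRS3, whose transcription retinoic acid is known to raise, lay near the limit of counting. No fragment was counted in 7 of 24 libraries from Kelly or 3 of 24 from NGP, and the highest counts were 39 in Kelly and 80 in NGP. In Kelly DMSO at 3 days it read 0 and 0.268 CPM, where 0 fragments allow up to 0.181 CPM by counting error alone. Its highest values were 4.43 and 2.58 CPM in NGP DMSO at 6 days, against 0.868 and 1.58 CPM in STM2457. Over 6 h of actinomycin D in NGP DMSO cells at 6 days it went from those values to 0.302 and 0.528 CPM, a log2 change of −3.10 ± 1.61 (adjusted p = 0.13) that limma-voom called (adjusted p = 0.0218), as did ERCC scaling (adjusted p = 0.0242). In the other comparisons no change of DHRS3 was detectable at this depth.

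The STM2457 contrasts of STRA6 and CRABP1 in Kelly sat on levels that also differed between 3 and 6 days of culture in DMSO. This comparison was added after the data were seen. It shares the DMSO libraries with the STM2457 comparisons and the decay differences, for these genes and for RET, and values set side by side are not independent. STRA6 went from 82.6 and 82.7 CPM at 3 days to 9.53 and 13.4 CPM at 6 days, and fell by 2.88 ± 0.16 on the log2 scale (adjusted p = 2.92e-40). CRABP1 rose from 52.4 and 52.1 CPM to 108 and 111 CPM, by 1.05 ± 0.14 (adjusted p = 1.03e-10). CRABP2 rose from 6.82 and 10.4 CPM to 25.7 and 22.3 CPM, by 1.46 ± 0.34 (adjusted p = 0.000748), a call lost without DMSO replicate 1 of day 3, when the change was 1.19 (adjusted p = 0.0907). These 3 of 9 members were called against 8.52% of all genes tested. The 3 day and 6 day cultures may differ in more than time, and duration and any batch cannot be told apart.

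In Kelly cells kept in STM2457 the same 3 genes gave fitted log2 changes from 3 to 6 days of −0.78 ± 0.14 for STRA6, 0.58 ± 0.14 for CRABP1 and 2.09 ± 0.36 for CRABP2. The libraries of STRA6 and CRABP1 at 6 days in STM2457 lay between the 3 day and 6 day DMSO levels. Among fibroblast markers COL1A1 had the highest median over the Kelly libraries, 14.0 CPM, against 0.842 for COL3A1, 0.220 for COL1A2 and 0 for DCN and LUM. Summed fibroblast markers in Kelly, of which 2 of 5 reached a mean of 1 CPM, were at 4.23 to 5.30 CPM in DMSO at 3 days, 37.1 to 38.0 CPM in DMSO at 6 days and 20.8 to 24.4 CPM in STM2457 at 6 days. Summed mesenchymal neuroblastoma markers, 6 of 8 at a mean of 1 CPM or more, were at 170 to 171 CPM, 245 to 272 CPM and 237 to 241 CPM in those groups. Their part in the STRA6 and CRABP results was not tested, and a change in the mix of cells and in RNA per cell cannot be told apart in bulk RNA.

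In NGP, CRABP1 was the member that changed with culture in DMSO, 1 of 9 against 12.1% of all genes tested. It rose from 10.2 and 5.95 CPM at 3 days to 22.0 and 20.8 CPM at 6 days, by 1.40 ± 0.28 (adjusted p = 0.000108). STRA6 in NGP changed by −0.26 ± 0.16 (adjusted p = 0.387) and CRABP2 by 0.18 ± 0.35 (adjusted p = 0.883). RARA, at −0.51 ± 0.26 (adjusted p = 0.24), was called with limma-voom (−0.55, adjusted p = 0.0434) and with ERCC scaling (−0.69, adjusted p = 0.0465).

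Under actinomycin D the receptor transcript RARA was lost faster than the typical gene in both lines, and in Kelly the uptake and carrier transcripts STRA6 and CRABP1 rose relative to the typical gene. With TMM scaling every change is relative to the typical gene, whose level falls too while transcription is blocked. A positive value can thus mean slower loss than the typical gene, no loss or a rise. Of the 9 members, 4 were called between 6 h and 0 h in Kelly DMSO cells at 3 days and 3 at 6 days, against 30.1% and 26.5% of all genes tested. In NGP 4 were called at 3 days and 4 at 6 days, against 37.4% and 36.7%. RARA was called lower in all 4 comparisons. In Kelly at 6 days ERCC scaling called 7 members, with CRABP2, RARG, RXRA and RXRB lower in addition, where the median of all genes fell by 1.18 on the log2 scale.

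RARA read 57.9 and 70.2 CPM at 0 h, 29.1 and 30.5 CPM at 3 h and 5.47 and 20.6 CPM at 6 h in Kelly DMSO cells at 3 days. At 6 days it read 68.2 and 61.4, then 30.7 and 30.2, then 8.60 and 9.16 CPM. The ranges at the 3 times did not overlap in either course. In NGP at 3 days it read 55.0 and 56.2, then 13.7 and 16.9, then 5.56 and 10.6 CPM, and at 6 days 32.8 and 46.2, then 22.1 and 14.9, then 8.62 and 3.62 CPM. The log2 changes over 6 h were −2.29 ± 0.25 and −2.87 ± 0.26 in Kelly (adjusted p = 1.56e-15 and 4.45e-21) and −2.81 ± 0.29 and −2.69 ± 0.29 in NGP (adjusted p = 1.47e-13 and 7.75e-13). The Kelly value at 3 days was −3.54 without replicate 2 of the 6 h group and −1.63 without replicate 1, and stayed called in both. On the ERCC scale the added RNA is taken to stand for a fixed amount. There 15.2%, 5.64%, 8.16% and 7.50% of RARA was left at 6 h (Kelly at 3 and 6 days, NGP at 3 and 6 days), while the median gene kept 78.8%, 44.2%, 57.1% and 46.7%. Among all genes tested, RARA stood at the 7.83, 3.68, 5.52 and 5.24 percentiles of these changes. The percentages left are estimates, since the same scale put CRABP1 at 155% in Kelly at 3 days and STRA6 at 132% in Kelly at 6 days. In Kelly DMSO libraries at 3 days the ERCC share was 0.381 and 0.382% at 0 h, 0.506 and 0.528% at 3 h and 0.452 and 0.449% at 6 h. Whether the spike-ins track the amount of RNA was not tested.

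RXRA had negative changes relative to the typical gene in all 4 comparisons and was called in 3. They were smaller in size than those of RARA, a difference that was not tested. In NGP DMSO cells it read 47.7 and 36.2 CPM at 0 h and 23.0 and 24.3 CPM at 6 h at 3 days, and 40.5 and 38.4 CPM against 17.9 and 24.2 CPM at 6 days. The log2 changes were −0.84 ± 0.24 (adjusted p = 0.00274, a call lost without replicate 1 of the 0 h group) and −0.95 ± 0.24 (adjusted p = 0.000653). In Kelly it changed by −0.71 ± 0.20 at 3 days (adjusted p = 0.00189) and by −0.45 ± 0.19 at 6 days, which missed the threshold (adjusted p = 0.0707). On the ERCC scale, where the median gene fell too, RXRA was called lower in all 4 comparisons, by values from −2.01 to −1.14. With TMM scaling RXRB was not called in any of the 4 comparisons, with changes of −0.58 ± 0.31 to 0.17 ± 0.27, while on the ERCC scale it was called lower in all 4, by values from −1.85 to −0.88. RARG was called lower in NGP at 3 days, −1.18 ± 0.47 (adjusted p = 0.0411), and RARB in NGP at 6 days, −1.32 ± 0.53 (adjusted p = 0.0415). On the ERCC scale RARG was also called lower in Kelly at 3 days (−1.16, adjusted p = 0.0268) and 6 days (−1.78, adjusted p = 0.000124), and RARB in NGP at 3 days (−1.57, adjusted p = 0.00894). The TMM calls of RARG in NGP at 3 days and RARB in NGP at 6 days were each lost in 3 of 4 refits without 1 library. Both were also lost with limma-voom (adjusted p = 0.137 and 0.0586), and that of RARB without the filter on low counts (adjusted p = 0.0525 by edgeR). Whether the loss differs between durations was not tested.

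In Kelly, STRA6 and CRABP1 were called higher at 6 h. STRA6 read 82.6 and 82.7 CPM at 0 h, 103 and 115 CPM at 3 h and 141 and 115 CPM at 6 h in DMSO at 3 days, and 9.53 and 13.4, then 21.4 and 22.8, then 38.0 and 35.2 CPM at 6 days. Its 6 h log2 changes were 0.63 ± 0.14 (adjusted p = 9.38e-05) and 1.68 ± 0.16 (adjusted p = 2.63e-19), and on the ERCC scale 0.20 ± 0.14 (adjusted p = 0.325) and 0.40 ± 0.16 (adjusted p = 0.0224). CRABP1 read 52.4 and 52.1 CPM at 0 h and 110 and 108 CPM at 6 h in DMSO at 3 days, and 108 and 111 CPM against 187 and 175 CPM at 6 days. Its log2 changes were 1.06 ± 0.14 (adjusted p = 9.94e-12) and 0.72 ± 0.13 (adjusted p = 2.24e-06), and on the ERCC scale 0.63 ± 0.14 at 3 days but −0.56 ± 0.14 at 6 days. The direction for CRABP1 at 6 days thus turned with the scaling, while its loss stayed smaller than that of the median gene, at −1.18 on the ERCC scale.

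In NGP, STRA6 changed by 0.30 ± 0.16 (adjusted p = 0.136) at 3 days and 0.04 ± 0.16 (adjusted p = 0.899) at 6 days, and on the ERCC scale by −0.50 ± 0.16 and −1.02 ± 0.17, where the median gene changed by −0.809 and −1.10. CRABP1 in NGP was called higher at 6 days, from 22.0 and 20.8 to 38.8 and 41.3 CPM, with 0.86 ± 0.27 (adjusted p = 0.00694, lost without replicate 2 of the 0 h group) by TMM and −0.19 ± 0.28 on the ERCC scale. CRABP2 was called higher at 3 days, from 4.92 and 8.38 to 13.2 and 15.7 CPM, with 1.11 ± 0.35 (adjusted p = 0.00855) by TMM and 0.31 ± 0.35 (adjusted p = 0.483) on the ERCC scale. That call was lost without replicate 1 of the 0 h group or replicate 2 of the 6 h group.

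**Figure D3:**
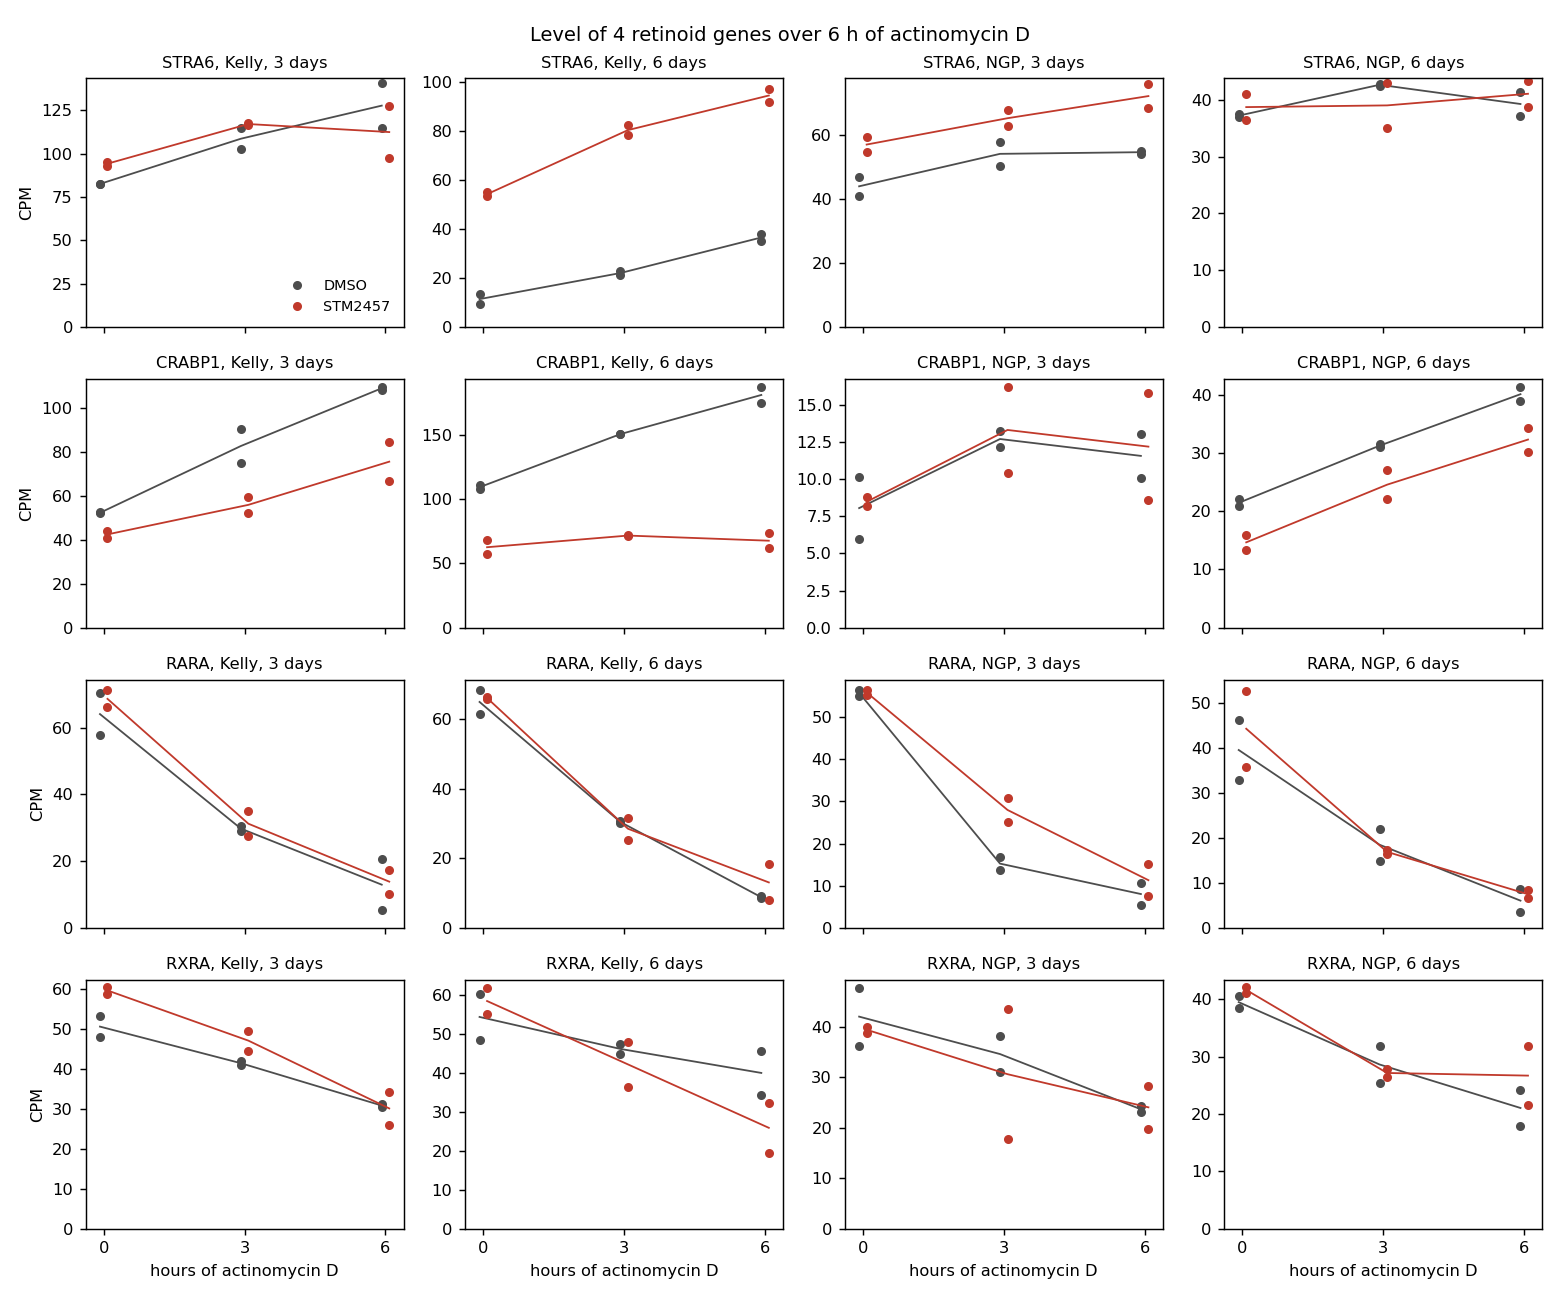
Level in CPM (vertical axes, linear, from 0) of STRA6, CRABP1, RARA and RXRA against hours of actinomycin D (horizontal axis) in each line and duration; points are single libraries, lines join means of 2, grey for DMSO and red for STM2457. The mean of RARA falls at every step in all 8 courses, while CRABP1 in Kelly DMSO cells at 6 days goes from 108 and 111 to 187 and 175 CPM; CPM is relative to the typical gene.

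**Figure D4:**
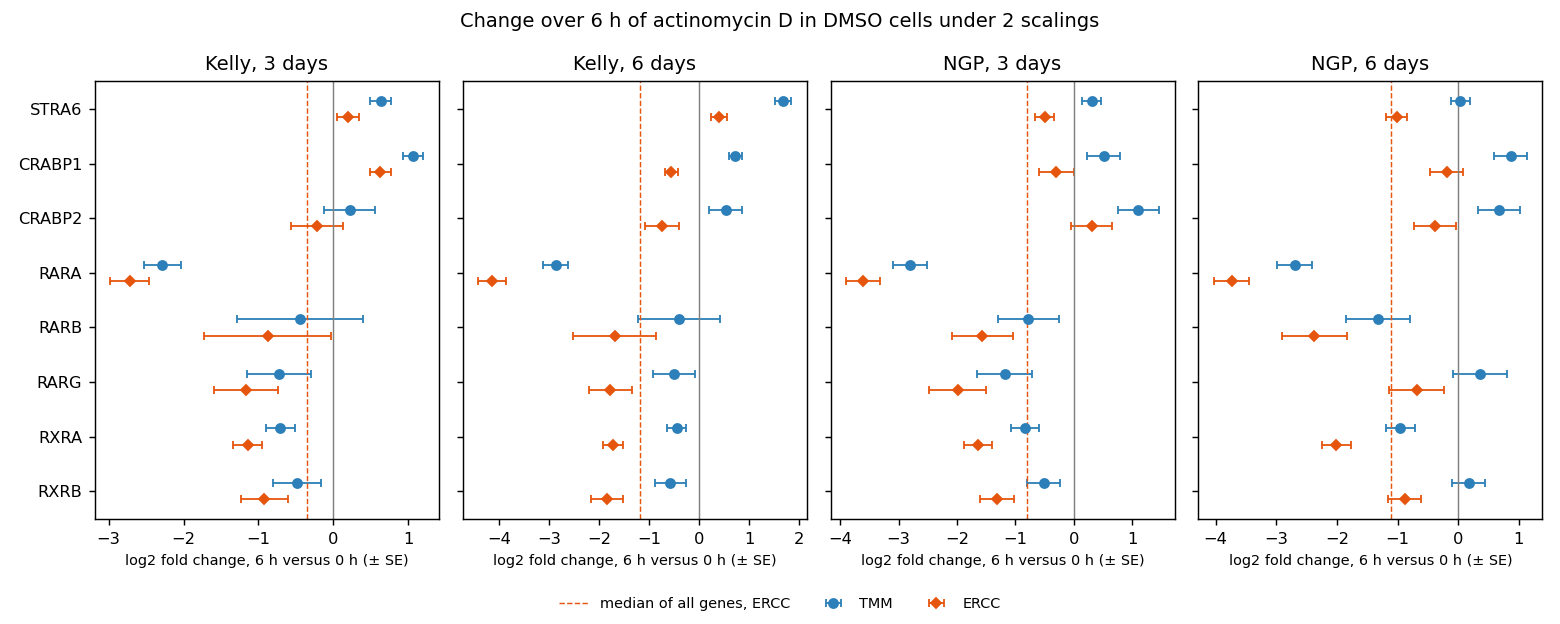
Log2 fold change between 6 h and 0 h of actinomycin D in DMSO cells (horizontal axes) for 8 of the 9 genes with TMM scaling (blue circles) and with scaling to ERCC spike-ins (orange diamonds), ± 1 SE; the dashed line is the median of all genes on the ERCC scale and each panel has its own range. RARA lies far to the left of the median in all 4 panels, and CRABP1 turns from positive to negative with the ERCC scale in all panels but Kelly at 3 days.

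With TMM scaling the 6 h change under actinomycin D differed between STM2457 and DMSO cells past the threshold for 1 member, a call lost in several other settings. The test of this, the decay difference, takes the 6 h change in STM2457 cells minus that in DMSO cells. It was called for 0 of 9 members in Kelly at 3 days, 1 at 6 days, and 0 in NGP at both durations, against 0.221%, 0.424%, 0.703% and 2.54% of all genes tested. The called member was STRA6 in Kelly at 6 days, at −0.89 ± 0.21 (adjusted p = 0.0149). Its levels in STM2457 were 53.4 and 55.2 CPM at 0 h, 78.5 and 82.3 CPM at 3 h and 97.1 and 92.0 CPM at 6 h, so it gained on the typical gene by less than in DMSO. The call was lost on the ERCC scale (−0.19, adjusted p = 0.575), with limma-voom (adjusted p = 0.353) and in 4 of 8 refits without 1 library (DMSO 0 h replicate 1, STM2457 0 h replicate 1 or 2, DMSO 6 h replicate 1), where it ranged from −1.14 to −0.65. For RARA the 4 decay differences were −0.01 ± 0.34, 0.53 ± 0.34, 0.49 ± 0.39 and 0.12 ± 0.40, none of them called. Where 0 members were called, 1 in Kelly at 3 days (CRABP2) and 0 in NGP at either duration had an unadjusted p below 0.05, and 0 were called by DESeq2 or by limma-voom. DESeq2 called CRABP1 as well in Kelly at 6 days (−0.62, adjusted p = 0.0219). With ERCC scaling, where the median decay difference of all genes was −0.373 in Kelly at 3 days and 0.703 at 6 days, STRA6 at −0.78 and CRABP1 at −0.64 were called at 3 days, and RARA at 1.24 and RXRB at 1.58 at 6 days.

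The transcripts of the members differed in sequence content. In the MANE Select transcripts of GENCODE release 44, GGACT, the core of the motif that METTL3 methylates, was counted on the transcript strand. It occurred at 2.05 per kb in CRABP2, 1.82 in DHRS3, 1.60 in RARB, 1.48 in STRA6, 1.04 in RXRB, 1.03 in RARG, 0.916 in RARA and 0.722 in RXRA, against a median of 0.924 over 19061 transcripts, and the 738 bases of CRABP1 held 0. ATTTA, the core of AU-rich elements, stood at 0.611 per kb in RARA against a median of 0.975, at 2.24 in RARB and at 0 in RXRB. The GC content of the members was 54.6 to 61.9%, apart from RARB at 42.8%, where the median transcript had 49.0%. In the authors' gene models STRA6 (chromosome 15, 74179466 to 74212267, − strand) shares 519 exon bases, 6.77% of its length, with CCDC33 on the opposite strand. RXRB (chromosome 6, 33193588 to 33200688, − strand) shares 244, 6.22%, with SLC39A7, and RARB shares 28, 0.757%, with TOP2B, both on the opposite strand. The counting names no strand option, so reads of these bases cannot be told apart by strand.

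Genes whose group means followed a member most closely were taken over the 24 groups, centred within each line, among 9803 genes with at least 5 CPM in both. Nearest to STRA6 were PLPPR4 (Pearson r = 0.90) and SELENOW (r = 0.89), to CRABP1 WNK2 (r = 0.95) and MAN2A2 (r = 0.93), and to CRABP2 FKBP7 and CTCFL (both r = 0.90). Nearest to RARA were PPP4R3A and ZNF622 (both r = 0.97), and to RXRA UCK2 (r = 0.94) and RPP25 (r = 0.92). RARB was nearest to LRIG1 (r = 0.85), RARG to ANKRD27 (r = 0.82), DHRS3 to RHBDD1 (r = 0.83) and RXRB to PRR7 (r = 0.73). The pattern of DHRS3 rests on few fragments, at medians of 0.274 CPM in Kelly and 0.495 CPM in NGP, and may largely be counting error. Among members, RARA and RXRA followed each other most closely (r = 0.89) and STRA6 and RARB ran most strongly opposite (r = −0.68). These groups share libraries and the actinomycin D course, so the correlations describe these data and carry no test.

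Of the wider retinoid pathway, 0 to 3 genes per list were called for STM2457. Among 27 genes of retinoid metabolism and carriage, 22 were tested in Kelly and 15 in NGP. None was called at 3 days in Kelly or at 3 or 6 days in NGP, against 1.68%, 3.7% and 7.99% of all genes tested. In Kelly at 6 days 1 was called, where 3.97% of all genes tested were. The list had medians of −0.18, 0.09, −0.14 and 0.00 on the log2 scale (Kelly at 3 and 6 days, NGP at 3 and 6 days) beside medians of 0.00, 0.00, 0.00 and 0.02 over all genes. Where 0 were called, 2, 0 and 2 passed an unadjusted p under 0.05 (Kelly at 3 days, NGP at 3 and 6 days), DESeq2 called 1, 0 and 1, and limma-voom called 0. The gene called in Kelly at 6 days was FABP5, a carrier that hands retinoic acid to another nuclear receptor, at 0.30 ± 0.10 (adjusted p = 0.0477), a call lost with RLE, ERCC or unfiltered data, with a replicate block and in every refit without 1 library. RDH14, a retinol dehydrogenase, was lost over 6 h of actinomycin D in all 4 DMSO comparisons, by −3.16 ± 0.42 in Kelly at 6 days (adjusted p = 3.49e-11).

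Of 20 counted genes among receptor partners and coregulators, all were tested in Kelly and 19 in NGP. STM2457 called 1 in Kelly at 3 days (higher) and 0 at 6 days, and in NGP 0 at 3 days and 2 at 6 days (1 higher, 1 lower), against 1.68%, 3.97%, 3.7% and 7.99% of all genes tested. Where 0 were called, 2 in Kelly at 6 days and 3 in NGP at 3 days had an unadjusted p below 0.05, and 0 were called by DESeq2 or by limma-voom. The list medians were 0.02, 0.09, −0.01 and 0.06 (Kelly at 3 and 6 days, NGP at 3 and 6 days), beside 0.00, 0.00, 0.00 and 0.02 over all genes. The gene called in Kelly was CREBBP, a coactivator with acetyltransferase activity, at 0.40 ± 0.11 (adjusted p = 0.0258), a call lost in 4 of 4 refits without 1 library. Those called in NGP were MED1, a Mediator subunit, at 0.30 ± 0.08 (adjusted p = 0.011) and the corepressor NCOR1 at −0.23 ± 0.07 (adjusted p = 0.0359). The MED1 call was lost in 2 of 4 refits and on the ERCC scale, and the NCOR1 call in 3 of 4 refits (−0.15 without STM2457 replicate 1) and without the filter on low counts. Like RARA, the coactivator EP300 and the coregulator NRIP1 were lost over 6 h of actinomycin D in DMSO, EP300 by −2.48 ± 0.11 and NRIP1 by −2.50 ± 0.18 in Kelly at 3 days, and both were called in all 4 comparisons.

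Of 23 genes known to respond to retinoic acid, 19 were tested in Kelly and 16 in NGP. STM2457 called 1 and 2 in Kelly and 1 and 3 in NGP at 3 and 6 days, all higher, against the same 1.68%, 3.97%, 3.7% and 7.99% of all genes tested. The list had medians of 0.00, 0.06, 0.13 and 0.13 beside 0.00, 0.00, 0.00 and 0.02 over all genes. RET, a receptor tyrosine kinase that retinoic acid raises in neuroblastoma cells, was called in all 4 comparisons. In Kelly it stood at 185 ± 1.28 CPM (SD, n = 2) in DMSO and 255 ± 9.47 CPM in STM2457 at 3 days, and at 42.9 ± 10.5 and 114 ± 8.58 CPM at 6 days. Its log2 change there was 0.45 ± 0.10 at 3 days (adjusted p = 0.00287) and 1.44 ± 0.11 at 6 days (adjusted p = 2.01e-25), and like STRA6 it was lower at 6 than at 3 days in DMSO, by −2.14 ± 0.11 (adjusted p = 7.64e-44). In NGP it rose by 0.77 ± 0.14 and 0.58 ± 0.14. The call in Kelly at 3 days was lost with DESeq2 and in 3 of 4 refits without 1 library, and that in NGP at 6 days in 2 of 4 refits (0.35 without DMSO replicate 2) and with limma-voom. MEIS2, a homeobox gene, rose at 6 days in Kelly by 0.49 ± 0.14 (adjusted p = 0.0227) and in NGP by 0.32 ± 0.10 (adjusted p = 0.0342), and each call was lost in 3 of 4 refits without 1 library (0.32 in Kelly without STM2457 replicate 2) and on the ERCC scale. MEIS1, a related homeobox gene, rose in NGP at 6 days by 0.38 ± 0.10 (adjusted p = 0.00824), a call lost in 3 of 4 refits.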

How the data were processed

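Poly(A) RNA of 48 libraries was sequenced as read pairs. The authors deposited raw fragment counts per gene, made with featureCounts 1.5.3 on exons of GENCODE release 33 protein-coding genes plus ERCC spike-ins, per the file headers, which name no strand option. Per the submitters' processing notes, FastQC 0.11.5, Trimmomatic 0.36 and HISAT2 2.1.0 on GRCh38 came before.

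Groups were taken from the sample titles. Counts were fitted with edgeR 4.0.16 (quasi-likelihood test, TMM scaling, filterByExpr with a minimum count of 10 and total of 15) over all 24 libraries of a line (16759 genes in Kelly, 14661 in NGP) or all 48 (17343), with Benjamini-Hochberg adjustment over all genes fitted and a threshold of 0.05. The SE of a log2 change is its absolute value divided by the square root of the F statistic of edgeR's test. It thus rests on the spread estimated over all libraries of the fit, not on the 2 libraries of each group alone. CPM use TMM-scaled library sizes of the joint fit. Changes over 3 h, in STM2457 cells under actinomycin D and over culture in STM2457 are fitted values without a call. The low depth of a gene widens its SE, and intervals of counts cover counting error only.

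Alternatives were RLE size factors, ERCC scaling, no filter, DESeq2 1.42.0, limma-voom (limma 3.58.1), the replicate number as a block, and each replicate left out in turn. The comparison of 6 with 3 days of culture was added after the data were seen. The named genes were all members, up to 3 called genes per further list and comparison with the largest change and a mean of at least 1 CPM (those whose calls the text turns on are described), and the 2 genes nearest to each member in pattern. Some genes of the further lists are not reported here and were left out of the list counts. Members and lists were chosen with earlier results of these data known. Scripts were tested on simulated data. Promoter windows are RefSeq's on GRCh38.p14 and transcripts GENCODE 44 MANE Select.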

Additional observations from a re-analysis of the deposited data

Results flagged for a closer look

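These results are listed because an effect differed between durations, lines or treatments by a test of the difference itself (edgeR's quasi-likelihood test, adjusted over all genes). Groups of 2 libraries are too small for a test of single outlying samples.

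STRA6, the retinol receptor, was the member concerned. Its STM2457 effect was larger at 6 than at 3 days in Kelly by 2.09 on the log2 scale. It was lower in NGP than in Kelly at 6 days, by −2.20. Its decay difference between STM2457 and DMSO cells in Kelly at 6 days was −0.89, a call lost on the ERCC scale and with limma-voom.

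Among the further genes, RET, a receptor tyrosine kinase, had a larger STM2457 effect at 6 than at 3 days in Kelly by 0.99 ± 0.15 (adjusted p = 4.68e-07), which was 0.33 on the ERCC scale (adjusted p = 0.12). Its effect at 6 days was lower in NGP than in Kelly by −0.84 ± 0.19 (adjusted p = 0.00464), a call lost on the ERCC scale (−0.64), with limma-voom (adjusted p = 0.105), without Kelly DMSO replicate 1 of day 6 at 0 h (−0.61) and without NGP DMSO replicate 1 of day 6 at 0 h (−0.56). FABP5, a fatty acid and retinoic acid carrier, differed between durations in Kelly by 0.51 ± 0.13 (adjusted p = 0.0338), a call lost in all 8 refits without 1 library. The decay difference of the coregulator NRIP1 in Kelly at 6 days was 0.94 ± 0.24 (adjusted p = 0.0419), lost with DESeq2 (adjusted p = 0.176), with limma-voom (adjusted p = 0.334) and in 6 of 8 refits.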

How the results depend on the processing

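Of 2088 member values under an alternative, 2021 kept their direction, where called, and their side of the threshold, 34 gained a call, 27 lost one and 6 called or newly called values turned sign. Most of the kept values were uncalled under both settings, and staying uncalled counts as kept. These counts thus say little of how many calls survive, a share that was not computed. RLE size factors kept 180 of 180 values, no filter 178, DESeq2 178, limma-voom 172 and ERCC scaling 151 of 180. For the further genes, 607 of 686 values stayed, 74 lost their call and 5 turned sign. The cause of these changes was not tested.

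The replicate number is shared between groups, but the labels do not say that it pairs libraries. Deviations of same-numbered libraries correlated at −0.046 to 0.114. The replicate block kept 180 of 180 member values, and of the named calls FABP5 in Kelly at 6 days was lost (0.30, adjusted p = 0.0531).

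Sign changes of values called under either setting came with ERCC scaling, and 151 member values changed sign without a call under either. For loss over 6 h of actinomycin D they were CRABP1 (−0.56), CRABP2 (−0.75) and FABP5 (−0.81) in Kelly at 6 days, FABP5 in Kelly at 3 days (−2.85e-05), STRA6 (−0.50) and RDH11 (−0.39) in NGP at 3 days, and STRA6 (−1.02), RXRB (−0.88), CRABP1 (−0.19) and RDH11 (−0.61) in NGP at 6 days. The duration difference of FABP5 in Kelly became −0.15.

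With ERCC scaling counts of called genes moved as follows. For STM2457 in Kelly, 282 became 3727 at 3 days and 665 became 1170 at 6 days. For actinomycin D at 6 days, 4448 became 10389 in Kelly and 5380 became 9876 in NGP. Decay differences went from 37 to 2418 and from 71 to 5033 in Kelly at 3 and 6 days, and from 103 to 158 and from 372 to 2592 in NGP. The duration difference in Kelly went from 132 to 4009, culture in Kelly from 1428 to 2820, and line differences from 28 to 644 at 3 days and from 303 to 488 at 6 days.

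DESeq2 called 557 genes for STM2457 in Kelly at 3 days and 900 in NGP at 3 days (542 with edgeR), 96, 179, 167 and 593 decay differences in Kelly at 3 and 6 days and NGP at 3 and 6 days, 309 and 660 duration differences in Kelly and NGP (410 in NGP with edgeR), and 64 and 459 line differences. Limma-voom called 5 and 34 decay differences in Kelly, 54 in NGP at 3 days and 15 line differences at 3 days, where no filter gave 98.

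Counts of members called moved with ERCC scaling from 1 to 2 for STM2457 in Kelly at 3 days, from 3 to 7 for actinomycin D in Kelly at 6 days, from 0 to 2 and from 1 to 2 for decay differences in Kelly at 3 and 6 days, from 1 to 3 for the duration difference in Kelly, from 1 to 2 for culture in NGP and from 3 to 5 between the lines at 6 days. Limma-voom gave 0 for STM2457 in Kelly at 3 days, 0 for the decay difference in Kelly at 6 days, 2 for culture in NGP and 5 between the lines at 6 days. DESeq2 gave 2 decay differences in Kelly at 6 days and 1 line difference at 3 days.

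Leaving out 1 replicate at a time gave 118 to 150 and 340 to 424 genes for STM2457 in Kelly at 3 and 6 days, 262 to 297 and 742 to 884 in NGP (1172 with all libraries), 15 to 108 and 38 to 140 decay differences in Kelly, 46 to 85 in NGP at 3 days, 60 to 117 duration differences and 873 to 958 culture changes in Kelly, and 8 to 21 and 194 to 242 line differences. Members called ranged from 0 to 1 for STM2457 in Kelly at 3 days, 0 to 2 for the decay difference in Kelly at 6 days and 2 to 3 for actinomycin D in NGP at 3 days (4 with all libraries). Depth limits DHRS3, RARB and RARG most, whose SEs were the widest among the members.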
